A study of Rattus norvegicus with 6 samples.

Results

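The genes described here are 39 collagens and structural glycoproteins of the extracellular matrix, with the enzymes and the chaperone that mature and cross-link them, chosen by name. A gene was measured if the array held a probe set annotated with its symbol alone and if that probe set exceeded a log2 signal of 5 on at least 1 array. This was the case for 27 of the 39 genes, each with 1 probe set, out of 11237 genes measured in all. Col6a1, Col6a2, Col6a3, Col4a2, Col15a1, Col18a1, Lama2, Lama4, Lamb1, Nid1, Tnc and Thbs2 had no probe set named by the annotation and were not analysed here. RNA came from the left atria of 6 adult male Sprague-Dawley rats, 1 array per rat. In 3 rats the atria had been paced at a cycle length of 70 ms (rapid atrial pacing, RAP) and in 3 at 140 ms (control pacing, Con) for 48 hours, and each RAP rat was paced alongside a control in an adjacent cage, after like surgery and recovery (pairs 1 to 3). All 6 rats carried an electrode on the right atrium and received atenolol, a beta blocker, in the drinking water, and by design the ventricles of each group beat at the same rate. The control atria were therefore paced as well, and the comparison is between 2 pacing rates after surgery and not with an unpaced heart.

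The interstitial matrix of the atrium is made chiefly by fibroblasts. Fibrillar collagens of types I, III and V assemble into the fibers that bear load, and they are folded in the endoplasmic reticulum with help from the chaperone Serpinh1 and cross-linked outside the cell by lysyl oxidases (Lox and the Loxl enzymes). Type IV collagen and laminins form the basement membrane that surrounds cardiomyocytes and vessels, while glycoproteins such as fibronectin and periostin connect fibers and cells. Accumulation of this matrix, called fibrosis, is a hallmark of the atria in long-standing atrial fibrillation.

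The arrays themselves differed in ways that touch these results. Each array gives 1 value per probe set, a log2 signal after robust multiarray averaging, and the array medians lay between 5.82 and 5.85. Atrial muscle markers were high on every array, with Nppa, the atrial natriuretic peptide, between 13.40 and 13.59 and Myl7, the atrial myosin light chain, between 13.61 and 13.76, though they do not tell the left atrium from the right. Myl2, the ventricular myosin light chain, stood at 8.60 in Con 3 and between 4.28 and 4.89 on the other arrays. Myl3 and Myh7 were highest in Con 3 too. The mean deviation of the ventricular markers (8 of 9 measured) was 1.13 there, against -0.65 to 0.24 on the other arrays. Not all of them peaked in Con 3. Pln was highest in RAP 2 (12.98 against 12.56 in Con 3) and Irx3 in Con 1 (5.501 against 5.385). Whether ventricular tissue was included in Con 3 was not tested. Red cell markers (5 of 9 genes measured) also stood apart in Con 3, with a mean deviation of 1.88 from the genes' means over 6 arrays, against -0.78 to -0.13 on the others. The Con 3 array enters every value of pair 3, and results are therefore also given without it.

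After 2 days of RAP no single matrix gene was shown to differ from control pacing after adjustment in the main comparison. The genes were not tested as a group, and their change with RAP varied widely over the 3 pairs. Of the 27 measured genes, 0 rose and 1 fell, the fibulin Fbln1, by limma with the pair as a block, at the study's thresholds (p under 0.05 before adjustment, with a difference of over 1.3-fold). Over all 11237 genes the same thresholds called 2.94% higher and 3.45% lower. After adjustment over all probe sets tested, 0 of 27 genes had a p under 0.05 by limma, as had 0% of all genes. Before adjustment the p was under 0.05 for 1 of 27 (6.89% of all genes), and by the methods' paired t-test for 0. The mean change lay below 0 in 24 genes (51.2% of all genes) and above 0 in 3, with a median of -0.47 (all genes -0.01). The SD of the change over the 3 pairs had a median of 1.07 in the 27 genes and of 0.28 in all genes. It exceeded the size of the mean change in 26 of the 27 genes, all but Fbln1, and the share over all genes was not counted. Because these are bulk tissue samples, fewer matrix-producing cells and less RNA per cell cannot be told apart.

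The pairs did not run the same way. In pair 1, 23 of the 27 genes were lower with RAP than with control pacing (50.3% of all genes), in pair 2 all 27 were lower (51.8%), and in pair 3, 26 were higher (51.7%). The median change of the 27 genes was -0.48 in pair 1, -1.34 in pair 2 and 0.56 in pair 3. Lower in pairs 1 and 2 and higher in pair 3 were 23 genes, a pattern held by 21.7% of all genes, and 0 genes were lower, or higher, in all 3 pairs (14.1% and 14.3% of all genes). With more than a 1.3-fold difference in each pair the pattern was held by 13 of the 27 and by 2.96% of all genes. RAP 2 was the lowest of the 6 arrays in 25 of the 27 genes, as in 25.2% of all genes, and Con 1 or Con 2 was the highest in 22 (36.6%). Con 3 lay below Con 1 and Con 2 in 23 genes (38.4%). The 27 genes were read on the same 6 arrays and are not independent of each other, so these counts were given no test.

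**Figure D1:**
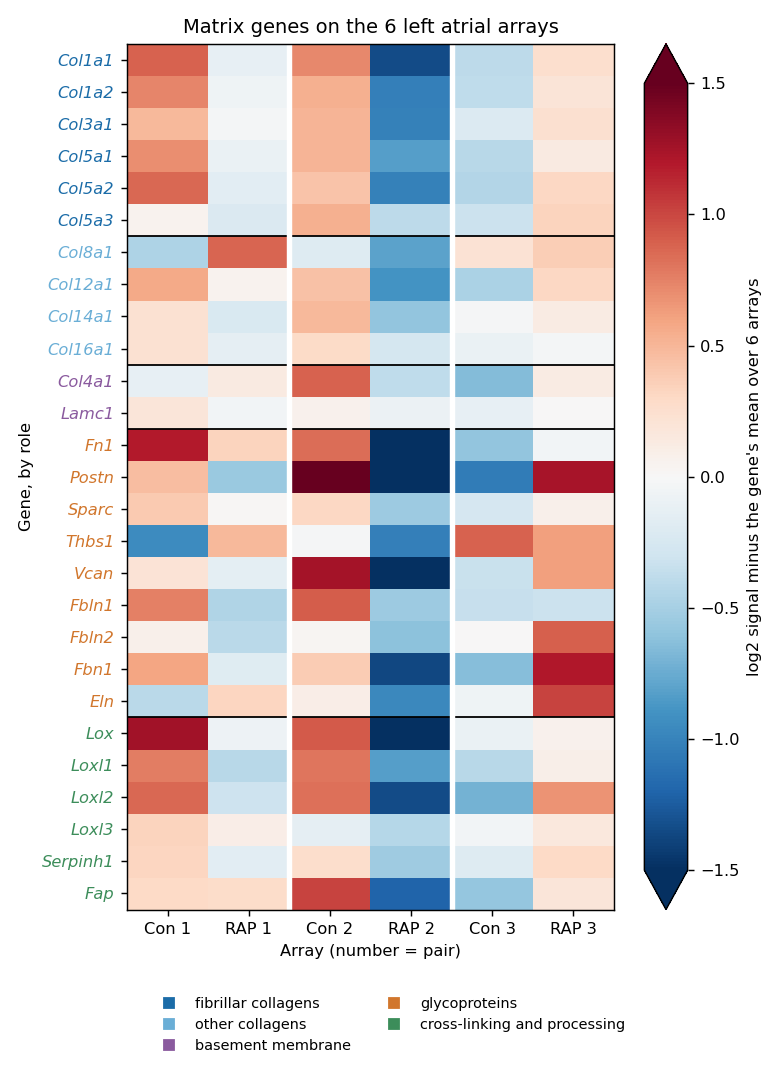
Log2 signal of the 27 measured genes on the 6 arrays as a deviation from each gene's mean over the arrays (red above, blue below, colors end at 1.5), with genes in rows by role and the arrays of a pair side by side. RAP 2 is the lowest array in 25 of the 27 genes, and Con 1 or Con 2 is the highest in 22.

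As a view of regulatory sequence, the 250 bases before the annotated start are shown for Col1a2, Serpinh1, Postn and the laminin gene Lamc1 (RefSeq, rat build GRCr8, 5′ to 3′ on the strand of the gene). All of them were lower with RAP in pairs 1 and 2 and higher in pair 3. Lamc1 hardly moved, with changes of -0.22, -0.14 and 0.13. Capitals mark matches, on either strand, to a TATA box, a CCAAT box, a GC box and a heat shock element, spelled out after the sequences.
Col1a2 (chr4:33518307-33518556, forward strand): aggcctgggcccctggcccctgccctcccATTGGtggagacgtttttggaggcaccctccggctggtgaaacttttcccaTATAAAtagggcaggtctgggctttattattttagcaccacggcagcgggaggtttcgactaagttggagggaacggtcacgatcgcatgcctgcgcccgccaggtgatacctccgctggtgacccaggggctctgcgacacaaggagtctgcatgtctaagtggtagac
Serpinh1 (chr1:163062977-163063226, reverse strand): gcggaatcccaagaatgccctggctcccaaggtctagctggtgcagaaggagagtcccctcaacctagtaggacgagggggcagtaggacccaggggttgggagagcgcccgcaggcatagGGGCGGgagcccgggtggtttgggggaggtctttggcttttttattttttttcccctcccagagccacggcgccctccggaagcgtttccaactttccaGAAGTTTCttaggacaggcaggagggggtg
Postn (chr2:140677811-140678060, forward strand): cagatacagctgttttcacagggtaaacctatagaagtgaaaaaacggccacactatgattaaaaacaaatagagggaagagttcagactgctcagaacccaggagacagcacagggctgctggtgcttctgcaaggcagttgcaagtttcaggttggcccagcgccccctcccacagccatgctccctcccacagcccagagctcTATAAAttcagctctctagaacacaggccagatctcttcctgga
Lamc1 (chr13:68051987-68052236, reverse strand): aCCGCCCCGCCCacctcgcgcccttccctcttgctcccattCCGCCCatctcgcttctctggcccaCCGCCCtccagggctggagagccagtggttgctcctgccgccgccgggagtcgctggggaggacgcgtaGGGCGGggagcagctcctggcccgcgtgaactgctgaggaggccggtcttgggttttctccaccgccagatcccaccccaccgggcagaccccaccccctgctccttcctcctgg

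The TATA box was searched as TATAAA and lay 44 bases before the annotated start in Postn and 170 bases before it in Col1a2, which also held, on its other strand, a CCAAT box 221 bases before the start. Serpinh1 held the heat shock element GAANNTTC 30 bases before the start, and further away, at 129 bases, a GC box, searched as GGGCGG. Lamc1 held 5 GC boxes on both strands, of which those at 249 and 244 bases overlap by 1 base. Of the 27 measured genes, 18 had a promoter in the table. A TATA box was found in 2 of the 18 (12.9% of all 33469 promoters), a CCAAT box in 5 (34%), a GC box in 10 (30.5%) and a heat shock element in 1 (7.23%). The AP-1 site TGACTCA was found in 0 of the 18 and in 4.05% of all promoters. A match to these letters is a description of the sequence and does not show that a factor binds there.

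The 6 fibrillar collagen genes were lower with RAP in pairs 1 and 2 and higher in pair 3 without exception, and none passed the test. Col1a1, the main chain of type I collagen, had a log2 signal of 12.73, 12.57 and 11.46 in Con 1, 2 and 3 and of 11.73, 10.51 and 12.10 in RAP 1, 2 and 3. Con 1 and Con 2 lay above every RAP array, and Con 3 lay below RAP 1 and RAP 3. The change was -0.80 (SE 0.53, 95% interval -2.18 to 0.57, adjusted p = 0.79 by limma), with an SD of 0.69 among controls and 0.83 among RAP rats (n = 3 each). Col1a2, the partner chain, followed with 12.18, 11.97 and 11.06 in the controls and 11.38, 10.42 and 11.64 with RAP. Col3a1, of the finer type III fibers, had changes of -0.51, -1.53 and 0.44 in pairs 1, 2 and 3. Col5a1 and Col5a2, chains of the type V collagen that nucleates fibrils, had -0.80, -1.33 and 0.55, and -1.02, -1.44 and 0.74. Col5a3, a rarer type V chain, differed least in the group, at 6.85, 7.34 and 6.48 in the controls and 6.59, 6.41 and 7.13 with RAP, a mean change of -0.18 (SE 0.32). The median of the 6 genes was -0.55, and within the pairs it was -0.80, -1.49 and 0.61. The 6 genes lay on the same side of their means on each array, between -0.44 and -0.20 from their means in Con 3 and between -1.34 and -0.39 in RAP 2.

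**Figure D2:**
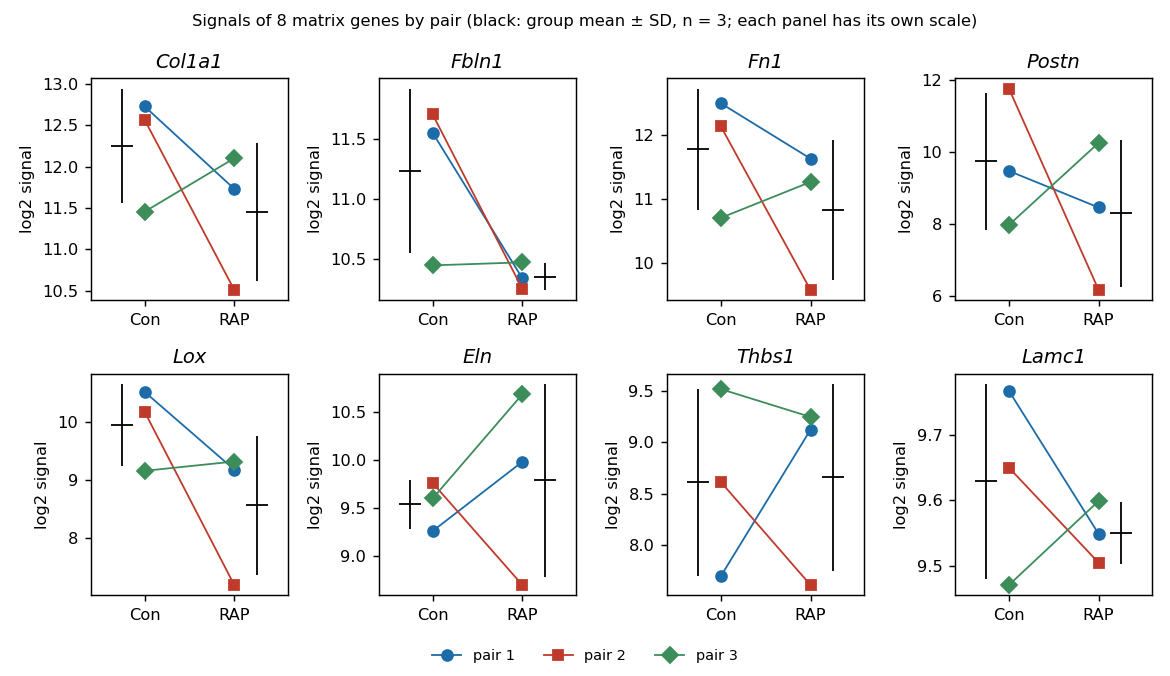
Log2 signal of 8 genes with control pacing and RAP, with a line between the arrays of each pair, and the mean ± SD of each group of 3 in black; the scale differs between panels. In Col1a1, Fn1, Postn and Lox pairs 1 and 2 run down and pair 3 runs up, and in Fbln1 Con 1 and Con 2 stand above the other 4 arrays.

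Among the collagens that decorate fibrils or form networks, 4 of 7 genes were measured and 0 passed. Col14a1, which binds the surface of collagen fibrils, stood at 9.85, 10.10 and 9.60 in the controls and 9.39, 9.02 and 9.74 with RAP, a change of -0.47 (SE 0.26). RAP 3 lay inside the range of the controls and the other RAP arrays below it. Col12a1 and Col16a1, of the same fibril-associated class, had mean changes of -0.36 (SE 0.42) and -0.28 (SE 0.17). Col8a1, a short-chain network collagen of vessels and activated fibroblasts, ran differently, at 6.31, 6.57 and 6.99 in the controls and 7.64, 5.97 and 7.15 with RAP. Its highest array was RAP 1 and its lowest RAP 2, and the change was 0.30 (SE 0.38).

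Of the 9 basement membrane genes only Col4a1 and Lamc1 were measured, so this layer is seen through 2 genes. Lamc1, the gamma chain shared by most laminins, varied least of the 27 genes and stood at 9.77, 9.65 and 9.47 in the controls and 9.55, 9.50 and 9.60 with RAP, with Con 1 the highest and Con 3 the lowest. Its change was -0.08 (SE 0.14, 95% interval -0.45 to 0.29). Col4a1, a chain of the type IV collagen network, stood at 8.22, 9.23 and 7.69 in the controls and 8.48, 7.96 and 8.46 with RAP, a change of -0.08 (SE 0.42). Here Con 2 was the highest and Con 3 the lowest array, with the RAP arrays between them. Its sign was not stable, as the change was 0.51 without replicate 2. Of 19 further basement membrane genes on a separate list 14 were measured and 0 passed, and their mean deviation lay between -0.16 and 0.15 on the 6 arrays. On the same scale the fibrillar collagens spanned -0.93 to 0.62. The mean of the separate list hides members that went opposite ways, with a mean change below 0 in 7 genes and above 0 in 7. Nid2 had changes of -0.41, -1.42 and -0.17 in pairs 1, 2 and 3, and Lamb2 of 0.12, 0.78 and -0.22. Lama1, Lama3 and Lamc3 had a log2 signal under 5 on at least 1 array.

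The glycoproteins, of which 9 of 11 were measured, included the largest mean difference, that of Postn, and the only gene that passed. Fbln1, a fibulin of elastic fibers and basement membranes, was the gene that passed the thresholds, with 11.55, 11.70 and 10.45 in the controls and 10.34, 10.26 and 10.48 with RAP. Con 1 and Con 2 stood above the other 4 arrays, while Con 3 lay within 0.03 of RAP 3, so the groups overlapped, as in all 27 genes (15.4% of all genes did not overlap). The change was -0.88, a 1.84-fold lower signal (SE 0.32, 95% interval -1.71 to -0.04, adjusted p = 0.756 by limma). The call was lost without replicate 1 (-0.71) or replicate 2 (-0.59), by the methods' paired t-test, after a further quantile normalization (-0.84) and after cyclic loess (-0.87), and, with no pair block, without any one of Con 1, Con 2, RAP 1, RAP 2 and RAP 3 (-0.94 to -0.64). It held without replicate 3 (-1.33) and without Con 3 alone (-1.27).

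Postn, the matricellular protein periostin made by activated fibroblasts, varied most, from 6.16 in RAP 2 to 11.77 in Con 2. It stood at 9.48, 11.77 and 7.97 in the controls and 8.46, 6.16 and 10.26 with RAP. The pairs were -1.02, -5.60 and 2.29, and the mean change of -1.45 had an SE of 1.49. Its sign turned without replicate 2 (0.63). Fn1, fibronectin, which links integrins to fibers, stood at 12.49, 12.13 and 10.70 in the controls and 11.63, 9.58 and 11.26 with RAP (change -0.95, SE 0.60). Vcan, the large proteoglycan versican of loose matrix, had pair changes of -0.35, -2.82 and 0.95. Sparc, which binds collagen and regulates its deposition, had smaller ones of -0.37, -0.84 and 0.32.

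Of the remaining glycoproteins, Eln and Thbs1 did not share the pair pattern of the fibrillar collagens, and Fbn1 and Fbln2 did. Fbn1, the microfibril protein fibrillin, had pair changes of -0.76, -1.75 and 1.84. Eln, elastin itself, stood at 9.26, 9.76 and 9.60 in the controls and 9.98, 8.70 and 10.68 with RAP, higher with RAP in pairs 1 and 3 (change 0.25, SE 0.45). Fbln2 was even among the controls (7.94 to 8.01, SD 0.04) and uneven with RAP (7.32 to 8.82, SD 0.81). Thbs1, thrombospondin 1, which releases TGF-beta from its latent form, was the only one of the 27 genes not higher with RAP in pair 3. It stood at 7.70, 8.62 and 9.52 in the controls and 9.12, 7.61 and 9.25 with RAP, and the control spread (SD 0.91) was many times its change of 0.05 (SE 0.48).

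The 6 genes of cross-linking and processing ran with the fibrillar collagens in the direction of all 3 pairs, and 0 passed. Lox, lysyl oxidase, had the second lowest mean change of the 27 genes, -1.39 (SE 0.60, 95% interval -2.95 to 0.18, adjusted p = 0.756 by limma). Its signal was 10.52, 10.18 and 9.16 in the controls and 9.18, 7.20 and 9.32 with RAP, with RAP 2 far below the other 5 arrays and Con 3, RAP 1 and RAP 3 almost level. Loxl1, the isoenzyme of elastic fibers, stood at 11.33, 11.37 and 10.15 in the controls and 10.15, 9.74 and 10.65 with RAP. Loxl2 had pair changes of -1.17, -2.18 and 1.39. Loxl3 varied less, at 7.20, 6.72 and 6.82 in the controls and 6.95, 6.43 and 7.02 with RAP, with a change of -0.11 (SE 0.16) and RAP 2 again the lowest array. Serpinh1, the collagen chaperone, had pair changes of -0.48, -0.80 and 0.49. Fap, a serine protease of activated fibroblasts, had -0.03, -2.22 and 0.77, and in RAP 2 it lay under the signal filter, at 4.66.

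**Figure D3:**
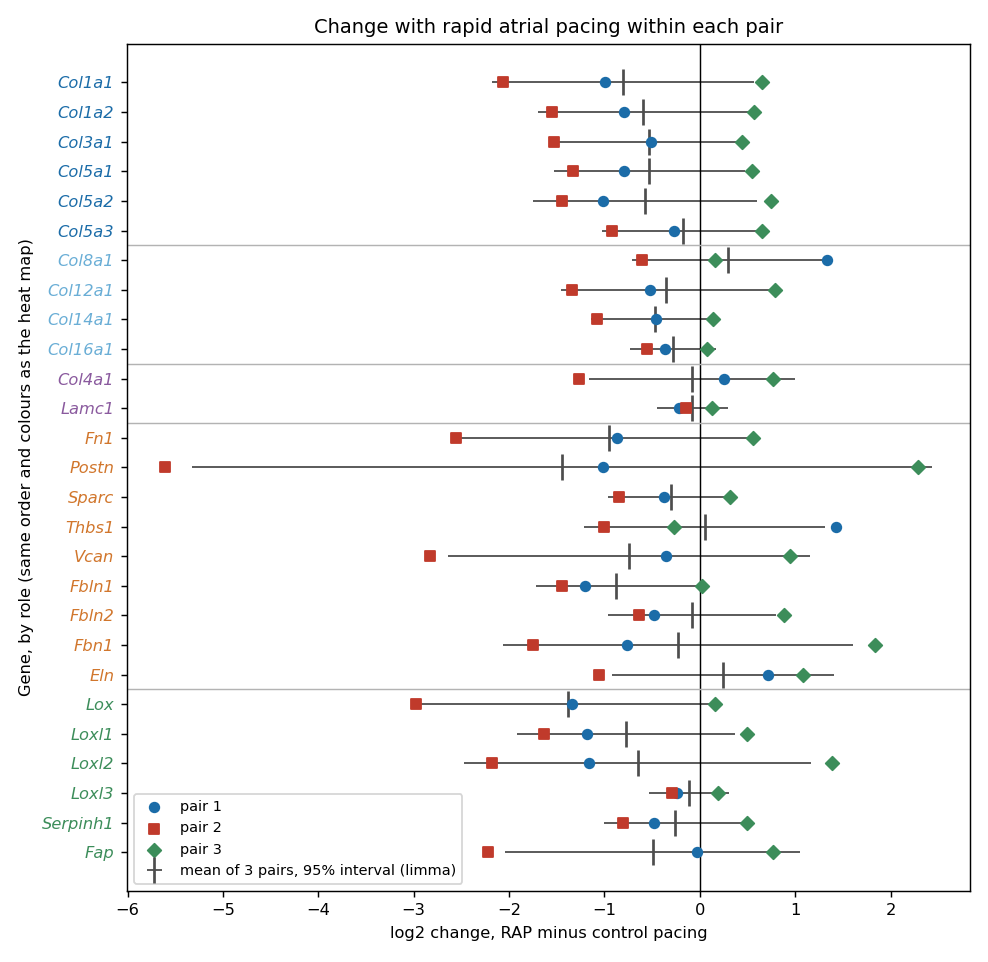
Log2 change with RAP of each of the 27 genes in pairs 1 to 3, with the mean of the pairs and its 95% interval from limma in gray and genes grouped by role. Pair 2 lies left of 0 for all 27 genes and pair 3 right of 0 for 26, and only the interval of Fbln1 excludes 0.

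Set side by side on each array, the groups differed in how far they swung and in part in direction. As the mean deviation of a group from its genes' means, the fibrillar collagens stood at 0.62, 0.54 and -0.36 in Con 1, 2 and 3 and at -0.11, -0.93 and 0.24 in RAP 1, 2 and 3. The glycoproteins stood at 0.26, 0.73 and -0.26 and at -0.06, -1.24 and 0.59. The basement membrane genes stood at 0.03, 0.47 and -0.38 and at 0.05, -0.23 and 0.07, almost level in pair 1, and of its members Lamc1 spanned 0.30 over the arrays and Col4a1 1.53. The other collagens stood at 0.14, 0.25 and -0.09 and at 0.14, -0.64 and 0.20. Cross-linking and processing genes (0.64, 0.62 and -0.34, then -0.10, -1.07 and 0.24) lay close to the fibrillar collagens on every array. The change with RAP of the fibrillar collagens minus that of the basement membrane genes was -0.75, -0.77 and 0.15 in pairs 1, 2 and 3, and the fibrillar collagens minus the glycoproteins gave -0.41, 0.50 and -0.25. The smallest two-sided p that an exact sign test allows with 3 pairs is 0.25, and the differences between groups are given without a test.

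Genes that act on the same matrix were counted from further lists. Of 27 enzymes and helpers of collagen synthesis and maturation 23 were measured, of which 0 rose and 3 fell at the study's thresholds, which called 2.94% of all genes higher and 3.45% lower, with a median change of -0.47. Pcolce, which enhances the removal of the procollagen tail, fell by 0.83 on the log2 scale (SE 0.28), Crtap, part of the prolyl 3-hydroxylase complex, by 0.78 (SE 0.24) and Adamts2, which removes the amino-terminal propeptide, by 0.60 (SE 0.20). Each was lower with RAP in all 3 pairs (14.1% of all genes), with changes of -0.17 to -0.11 in pair 3. These genes were picked because they passed a test within pairs, which favors genes of the same direction in each pair. Over the 23 measured genes the median change was -0.53, -0.91 and 0.08 in pairs 1, 2 and 3. Of 27 matrix receptors 21 were measured, with 1 rise and 3 falls and a median change of -0.01. The laminin-binding integrin Itga7 of muscle rose by 0.75 (SE 0.20), and Itgb3 (-1.26, SE 0.39), Itgb8 (-0.87, SE 0.27) and the syndecan Sdc4 (-0.79, SE 0.23) fell. Of 55 other interstitial matrix genes 38 were measured, and the cartilage intermediate layer protein Cilp (0.95, SE 0.30) and the connective tissue growth factor Ccn2 (0.56, SE 0.21) rose while 0 fell. The adjusted p of each of these genes was 0.756.

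Markers of other cells moved between the same arrays. Of the fibroblast markers 14 of 17 were measured (2 of the 17 are also on a matrix list), and their summed level, as log2 of the summed signals, lay between 12.30 and 13.15 in the controls and between 12.29 and 13.13 with RAP. Their median change was -0.27, with -0.17, -0.90 and 0.46 in pairs 1, 2 and 3. Their mean deviation was 0.08, 0.52 and -0.32 in Con 1, 2 and 3 and -0.20, -0.34 and 0.27 in RAP 1, 2 and 3, with the sign of the fibrillar collagens on each array. Meox1 and Lamc3 among them had a log2 signal under 5 on at least 1 array. The members did not move as 1 block. Dpt, dermatopontin, stood at 11.36 in RAP 2 and between 10.98 and 11.49 in the controls, while Cd248 stood at 7.38 in RAP 2 and at 10.07, 9.99 and 7.77 in the controls. Abca8a was the fibroblast marker that passed, higher by 0.71 (SE 0.26).

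Macrophage markers (16 of 16 measured) had a summed level of 12.51 to 14.17 in the controls and 12.41 to 13.21 with RAP. They stood highest in Con 2, at a mean deviation of 1.17, which was also the highest array for Postn, Vcan and Fap among others. In Con 1, the highest array for Col1a1, Fn1 and Lox among others, the mean deviation of macrophage markers was 0.125. Of the 16 genes all had a mean change below 0 (51.2% of all genes), with a median of -0.56. In pairs 1, 2 and 3 the median was -0.57, -1.82 and 0.57, beside -0.48, -1.34 and 0.56 for the matrix genes. Macrophage markers were lower with RAP in 15 of 16 genes in pairs 1 and 2 (50.3% and 51.8% of all genes) and higher in 14 in pair 3 (51.7%). The complement receptor Vsig4 fell (log2 change -1.503, SE 0.49, with -2.89 in pair 2) and was the only one of the 16 that passed, but in RAP 1 it lay under the signal filter, at 4.60. Mesothelial markers (9 of 12 measured) lay between 12.96 and 13.62 in the controls and between 12.28 and 12.62 with RAP, with a median change of -0.71. Of the 9, 4 fell (3.45% of all genes), Prg4 (-2.20, SE 0.26), C3 (-1.99, SE 0.54), Wt1 (-0.85, SE 0.19) and Msln (-0.71, SE 0.14). The mean change lay below 0 in 8 of the 9 (51.2% of all genes), and 6 were lower with RAP in pair 2 (51.8%). Ventricular markers (8 of 9 measured) ranged from 12.23 to 13.48 in the controls, highest in Con 3, and from 12.48 to 13.43 with RAP, with Irx4 at or under 5.29 on every array. Red cell markers ranged from 13.55 to 14.97 and from 13.60 to 14.23, with a median change of -0.72. Cell cycle genes (23 of 25 measured) stood at 1.03 in RAP 1 and -1.05 in RAP 2. The median changes of the other marker lists were 0.15 (smooth muscle), -0.09 (pericytes), 0.03 (endothelium), 0.52 (adipocytes), -0.05 (Schwann cells) and 0.17 (atrial cardiomyocytes). Of the 11 adipocyte markers 4 passed as higher (2.94% of all genes), Adipoq (1.09, SE 0.21), Cidec (0.58), Pparg (0.53) and Retn (0.46). Adipoq and Cidec had a log2 signal under 5 on at least 1 array. The pericyte marker Cspg4 (0.45, SE 0.14) and the atrial marker Pam (0.43, SE 0.15) also passed as higher. The part of these cells in the matrix values was not tested.

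**Figure D4:**
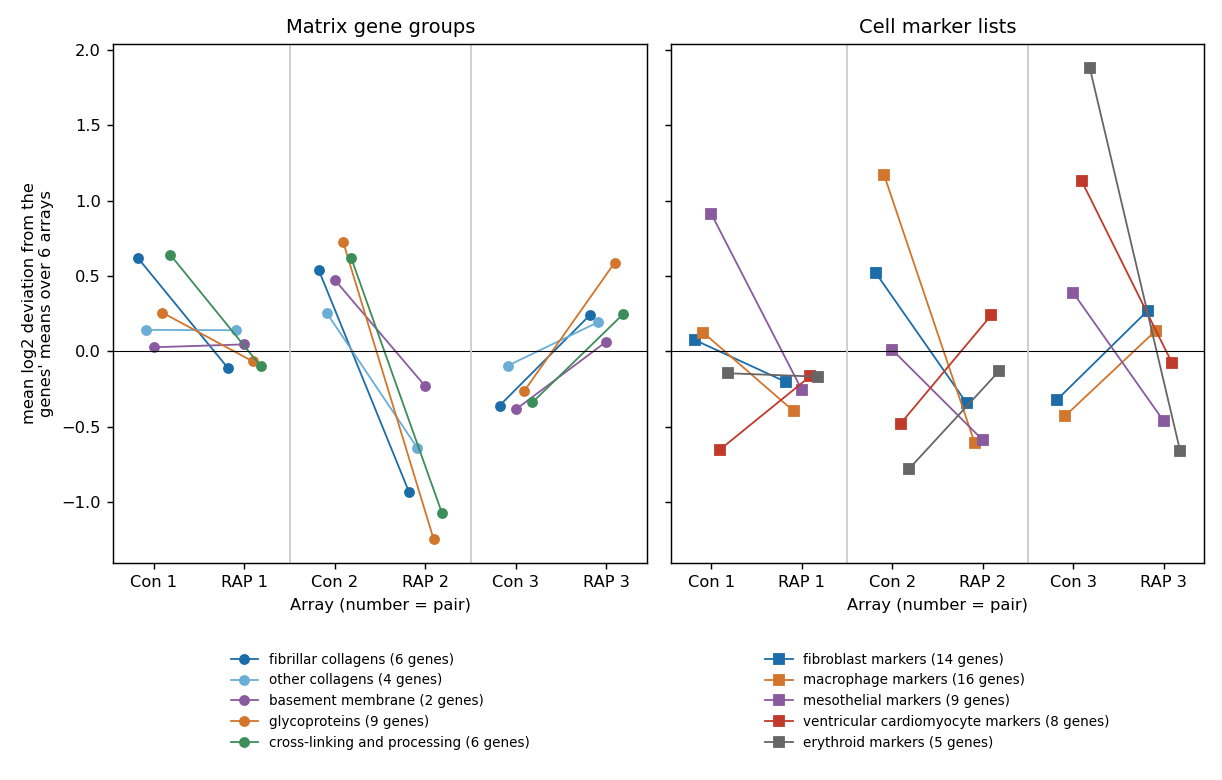
Mean log2 deviation from the genes' means over 6 arrays, for the 5 groups of matrix genes (left) and for 5 lists of cell markers (right), with the arrays of a pair joined and the number of measured genes in the key. The fibrillar, other collagen, glycoprotein and cross-linking groups are lowest in RAP 2, as are fibroblast, macrophage and mesothelial markers. Macrophage markers are highest in Con 2, and red cell and ventricular markers are highest in Con 3.

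How many matrix genes passed depended on the third pair. Without replicate 3, 19 of the 27 genes passed as lower, beside 12.8% of all genes, and the median change was -1.02. With Con 3 alone left out and no pair block, 9 passed as lower (Col1a1, Col1a2, Col5a1, Col14a1, Col16a1, Fn1, Fbln1, Lox and Loxl1), beside 8.59% of all genes, and with RAP 3 alone left out 3 did (Col14a1, Fbln2 and Lox), beside 5.44%. Without replicate 2 the median was -0.03, 0 passed as lower (1.92% of all genes) and Eln passed as higher (1.48%). Without RAP 2 alone 0 passed as lower (2.31%), and Eln and Col8a1 passed as higher (2.35%). No gene of the 27 passed as lower without replicate 1 (0.945% of all genes), without Con 1, Con 2 or RAP 1 alone (2.25%, 2.81% and 3.91%), by the methods' paired t-test (1.02%), after a further quantile normalization (2.9%) or after cyclic loess (3.21%). In each of these settings 0 of the 27 genes had an adjusted p under 0.05. With weights per array, 15 genes passed as lower (13.3% of all genes) and Col8a1 and Thbs1 as higher (10.3%), and 5 had an adjusted p under 0.05 (Col5a1, Col5a2, Fbln1, Lox and Loxl1).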

How the data were processed

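RNA from 6 left atria had been hybridized to Affymetrix whole-transcript rat arrays. The authors made the deposited log2 values in Partek (version not given in the sources used here) by robust multiarray averaging, which corrects background, normalizes between arrays by quantiles and summarizes each probe set. Quantile normalization makes the arrays alike in distribution, so a shift of most genes together would not be seen.

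Symbols came from the array annotation (15310 probe sets with 1 symbol, 323 with several, 13581 with none, 0 symbols changed by the current gene list). Probe sets above a log2 signal of 5 on at least 1 array were kept (19907 of 29214), and of a gene's probe sets the one of highest mean was taken. RAP was compared with control pacing in limma 3.58.1 (R 4.3.3) with the pair as a block (2 residual and 2.76 prior degrees of freedom), at the study's thresholds, and p-values were adjusted by Benjamini and Hochberg's method over all kept probe sets. The SE is limma's moderated one. Medians of gene groups are descriptions without a test. The fit was tested on simulated data with known changes. The 6 arrays, and not a read depth, limit the precision.

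Pairs were formed in the study by like surgery and recovery and by pacing at the same time, and the labels give each sample its pair number. As a check, the deviations of paired arrays from their group means were correlated at 0.22, -0.24 and -0.32 across probe sets in pairs 1, 2 and 3. By this measure paired arrays were not shown to be alike in pairs 2 and 3. The paper reports similarity within each pair from a principal component analysis, whose plot it does not show. The alternatives were no pair block, the methods' paired t-test, variance trend with robust moderation, array weights, 2 other filters, 3 other scalings, the mean of a gene's probe sets, and leaving out each pair or each array.

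The members, the gene lists and the role groups were chosen with earlier results of these data known, and the opposite course of pair 3 was known as well. Values are given on every array for members past the thresholds and for the highest and lowest mean change of each role group, and for further members of interest chosen after their values were seen. Of other lists, up to 4 members past the thresholds are named. Nppa, Myl7, Myl2, Myl3, Myh7, Pln, Irx3, Irx4, Nid2, Lamb2, Dpt and Cd248 were chosen after their values were seen. Coordinates are given only for promoters. Figures were drawn with matplotlib 3.10.9.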

Additional observations from a re-analysis of the deposited data

How the results depend on the processing

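The number of matrix genes that passed as lower, 1 by limma, was 0 by the methods' paired t-test, 0 after a further quantile normalization and 0 after cyclic loess, and 15 with array weights, with which 2 passed as higher and 5 had an adjusted p under 0.05. Those weights, estimated from 2 residual degrees of freedom, were 4.91, 0.623 and 0.327 for the arrays of pairs 1, 2 and 3, and 1696 of all genes then had an adjusted p under 0.05, against 0 without them. Without the pair as a replicate block 1 gene, Fbln1, passed as lower and 0 as higher, as with it, and the medians were the same by construction. With a variance trend, no filter, the stricter filter, arrays centred on their medians or the mean of all probe sets the counts were also 1 and 0. Leaving out single pairs or arrays gave 0 to 19 genes lower, 0 to 2 higher and 0 with an adjusted p under 0.05. Over the same settings the median change ranged from -1.02 to -0.03 for all members, from -1.12 to -0.12 for fibrillar collagens, from -0.34 to 0.23 for basement membrane genes and from -1.26 to 0.30 for glycoproteins. The sign turned in Col4a1 (-0.51 to 0.51, and 0.12 with array weights), Col5a3 (-0.60 to 0.19), Col8a1 (-0.22 to 0.77, and 1.06 with array weights), Eln (-0.20 to 0.90), Loxl3 (-0.27 to 0.070) and Postn (-3.31 to 0.63). It did not turn in Col1a1 (-1.53 to -0.18), Col14a1 (-0.77 to -0.16), Fbln1 (-1.33 to -0.59), Lamc1 (-0.18 to -0.01) or Lox (-2.16 to -0.59) in the settings tried. These ranges cover the settings that left out pairs or arrays, and array weights gave -0.19 for Lamc1. Why pair 3 differed was not tested.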
